A study of Mus musculus with 4 samples.

Results

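Messenger RNA levels were examined for 39 genes whose products shorten the poly(A) tail, remove the cap, degrade the body of the mRNA or bring these enzymes to a transcript. The genes were chosen by name from their known roles, and all 39 were found among the 24411 genes listed. The RNA came from GFP-positive cells sorted at postnatal day 18 (P18) from mouse testes. Every animal carried a knock-in (KI) allele, *Rec8-3xFLAG-HA-p2A-GFP*, which yields GFP alongside REC8, a cohesin of meiosis, so that the sort enriches germ cells in meiotic prophase. There were 2 control libraries, *Zfp541*+/-, and 2 libraries labelled *Zfp541* KO, whose allele lacks exons 1 to 13 of the gene; these are called KO-labelled below. One control was heterozygous for the KI and the other homozygous, and the labels do not say which; both KO-labelled samples were homozygous for it. Genotype and KI dosage therefore cannot be told apart in part of the comparison. The labels give a mixed C57BL/6 and CBA background, whereas the methods name C57BL/6. Each library came from a separate testis sample, and littermates are not identified.

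Most eukaryotic mRNAs are degraded from the tail inwards. The PAN2-PAN3 complex and then the CCR4-NOT complex shorten the poly(A) tail, after which the DCP2 enzyme with its partners DCP1A or DCP1B removes the 5′ cap and XRN1 digests the uncapped RNA. Nonsense-mediated decay (NMD), led by the helicase UPF1, directs transcripts with premature stop codons into the same enzymes. In spermatocytes, many mRNAs are made well before they are translated, and the storage and clearance of these transcripts is a known feature of male germ cells.

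The values are TPM, an abundance of transcripts per unit of length that has one total for all libraries. Fold changes are differences of group means of log2(TPM + 1), KO-labelled minus control, and a gene at low TPM differs by more than its fold change shows. *Zfp541*, the gene targeted, was at 112 and 72.2 TPM in control libraries 1 and 2 and at 136 and 151 TPM in KO-labelled libraries 1 and 2. Its transcript was thus not lower under the KO label (log2 fold change 0.67, standard error 0.28, limma adjusted p = 0.371), and gene-level TPM does not separate the deleted exons from the others. Every direction given here rests on the labels. The controls were far apart. The Euclidean distance between them over all genes tested was 153, against 49.2 between the KO-labelled libraries and 111 to 133 between a control and a KO-labelled library. The 4 macrophage markers summed to 893 TPM in control 1, 10.7 TPM in control 2, and 775 and 605 TPM in the KO-labelled libraries. The 5 Leydig cell markers summed to 2873, 18.0, 324 and 491 TPM in the same order, so both sums separated control 2 from the other libraries and did not separate the genotypes. Of 10 leptotene and zygotene markers, 8 were higher in both KO-labelled libraries than in either control (38.6% of all genes tested), with sums of 1345, 1584, 2509 and 2619 TPM. Of 10 pachytene markers, 5 were lower (12.1% of all genes tested) and 1 was higher by the same measure, with sums of 6906, 3259, 2476 and 3446 TPM. The pachytene marker *Hist1h1t* was at only 1.00 to 2.55 TPM in any library, all made from poly(A) RNA. The paper describes H1t-positive pachytene spermatocytes as a large part of the sorted cells, so this level does not show that they were absent. The part of cell makeup in the differences given below was not tested, and in sorted bulk RNA fewer cells of a type and less RNA per cell cannot be told apart.

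Upstream sequence is shown for 6 members chosen after their values were seen. *Patl1* had the largest difference of the 39, *Cnot6* the largest among the catalytic deadenylases, *Dcp1a* and *Dcp1b* are paralogues that differed in opposite directions, and *Upf3a* and *Smg5* were the members lower in both KO-labelled libraries. Each line gives the 250 bases before the annotated RefSeq start (GRCm38.p6), 5′ to 3′ on the gene's strand, with any match to AACNGNC, the core letters bound by MYB-family factors, in capitals when found on either strand. The windows lie at chr19:11912149-11912398 (plus strand) for *Patl1*, chr11:49712723-49712972 (minus) for *Cnot6*, chr14:30479315-30479564 (plus) for *Dcp1a*, chr6:119175003-119175252 (plus) for *Dcp1b*, chr8:13785365-13785614 (plus) for *Upf3a* and chr3:88336010-88336259 (plus) for *Smg5*. The window of *Dcp1a* runs past the GENCODE start of the gene into its first exon, and the others end at or next to it.
Patl1: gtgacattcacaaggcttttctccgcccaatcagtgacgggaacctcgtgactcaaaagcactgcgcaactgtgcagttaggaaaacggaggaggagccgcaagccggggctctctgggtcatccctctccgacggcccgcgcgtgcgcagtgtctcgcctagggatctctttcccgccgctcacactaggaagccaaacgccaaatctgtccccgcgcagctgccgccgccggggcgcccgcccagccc
Cnot6: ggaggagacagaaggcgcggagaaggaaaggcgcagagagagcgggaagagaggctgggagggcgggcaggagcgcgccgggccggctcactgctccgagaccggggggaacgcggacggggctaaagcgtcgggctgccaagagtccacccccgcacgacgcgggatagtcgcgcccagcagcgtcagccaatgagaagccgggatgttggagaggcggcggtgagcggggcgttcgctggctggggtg
Dcp1a: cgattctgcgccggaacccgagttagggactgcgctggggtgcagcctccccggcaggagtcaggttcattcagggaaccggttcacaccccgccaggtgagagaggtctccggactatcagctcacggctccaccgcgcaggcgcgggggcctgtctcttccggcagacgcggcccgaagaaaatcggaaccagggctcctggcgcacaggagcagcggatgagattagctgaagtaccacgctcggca
Dcp1b: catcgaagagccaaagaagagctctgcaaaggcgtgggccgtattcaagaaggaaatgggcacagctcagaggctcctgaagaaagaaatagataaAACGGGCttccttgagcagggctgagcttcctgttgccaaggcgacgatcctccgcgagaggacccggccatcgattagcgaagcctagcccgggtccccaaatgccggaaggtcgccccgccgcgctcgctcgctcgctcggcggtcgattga
Upf3a: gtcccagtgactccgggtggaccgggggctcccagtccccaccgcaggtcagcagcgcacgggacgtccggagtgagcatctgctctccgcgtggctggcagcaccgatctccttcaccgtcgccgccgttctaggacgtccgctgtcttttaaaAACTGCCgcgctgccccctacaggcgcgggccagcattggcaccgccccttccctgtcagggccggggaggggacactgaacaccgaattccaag
Smg5: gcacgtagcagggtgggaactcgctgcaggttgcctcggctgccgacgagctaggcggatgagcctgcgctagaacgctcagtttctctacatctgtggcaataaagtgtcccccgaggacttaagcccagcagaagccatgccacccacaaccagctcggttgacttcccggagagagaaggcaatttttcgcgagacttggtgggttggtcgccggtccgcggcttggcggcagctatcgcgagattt
Windows running from 250 bases before to 50 bases after the start were found for 34 of the 39 genes, 40 windows in all. No window was matched for *Cnot1*, *Cnot7*, *Dcp2*, *Lsm1* and *Ddx6*. The members' windows had a median GC content of 64.3% and a median ratio of observed to expected CpG of 0.84, against 60.3% and 0.73 for the windows of all genes tested, and 52.7% and 0.38 for every window of the table. The lowest CpG ratio of the members' windows was 0.09, in that of *Btg4*, which held 39% GC. The lowest GC content was 35%, in a window of *Cnot2* with a CpG ratio of 0.34. AACNGNC was present in 14 of the 40 windows (35%), in 33.8% of the windows of genes tested and in 32.8% of all windows. The cyclic AMP response element TGACGTCA was found on 1 member window (2.5%, of *Btg2*), against 2.96% for genes tested and 1.79% of all, and the E-box CACGTG on 2 (5%, of *Xrn2* and *Cnot4*) against 9.84% and 7.15%. Both strands were searched, and the letters of no motif contain those of another. The upstream windows of *Dcp1b* and *Upf3a* each held 1 match to AACNGNC, and those of *Patl1*, *Cnot6*, *Dcp1a* and *Smg5* held 0.

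All 39 genes passed the filter on low values (at least 1 TPM on average), among 14512 genes tested. As TPM is a level per transcript length, it can be set side by side between genes. Mean TPM over the 4 libraries ran from 237 for *Cnot1*, the scaffold of CCR4-NOT, through 180 for *Upf3a*, 176 for *Lsm14b* and 173 for *Upf1*, down to 12.9 for *Btg2*, 11.01 for *Btg4* and 2.38 for *Patl2*. The neighbouring places of *Upf3a*, *Lsm14b* and *Upf1* were not separated by the spread of their libraries, because *Upf3a* alone ranged from 123 to 323 TPM. *Patl2*, a paralogue of *Patl1* known from oocytes, was lower than every other member in all 4 libraries.

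**Figure D1:**
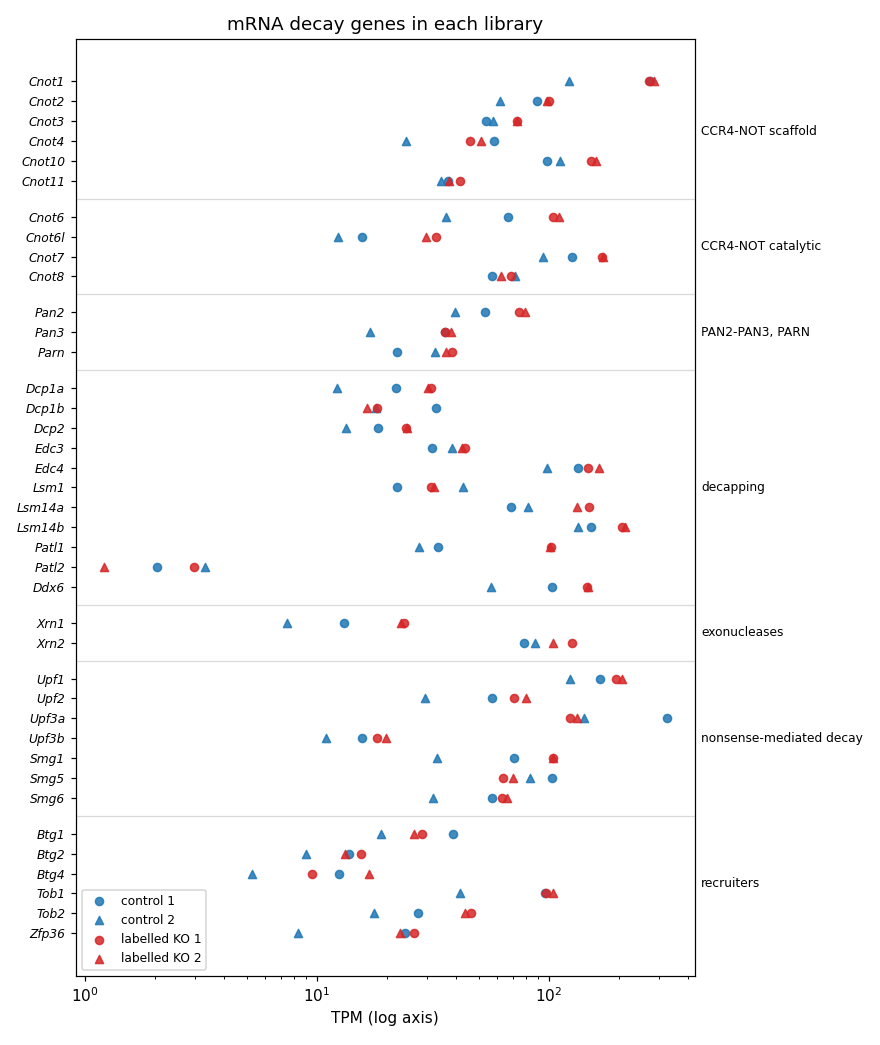
TPM on a log axis for each of the 39 genes, one row per gene and one point per library, grouped by role. Blue points are the 2 control libraries and red points the 2 KO-labelled libraries, with circles for replicate 1 and triangles for replicate 2. Control 2 is the lowest of the 4 in 27 of the 39 rows, as for 53.4% of all genes tested. *Patl1* shows red points at 102 and 101 TPM against blue points at 33.4 and 27.7 TPM.

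Most members were higher in the KO-labelled libraries, and none passed the test. Both KO-labelled libraries lay above both controls for 27 of the 39 genes (69.2%), where 38.6% of all genes tested did. Both lay below both controls for 2 genes, *Upf3a* and *Smg5*, where 12.1% of all genes did, and the groups overlapped for 10. The median log2 fold change of the members was 0.56, against 0.28 over all genes tested. At an FDR of 0.05 limma called 0 members, and the share of all genes called was 0%. Adjusted p-values of the members ran from 0.310 to 0.991. At an unadjusted limma p under 0.05 there were 11 members higher, against 10.7% of all genes tested, and 0 lower, against 3.73%. The count depended on the scaling. After median-ratio scaling, which moved the median of all genes from 0.28 to -0.01, the members' median was 0.24 and 16 were higher without overlap (22.6% of all genes), with 4 lower (22.8%), namely *Cnot11*, *Dcp1b*, *Upf3a* and *Smg5*. By quantile normalization there were 23 higher (27.8% of all genes) and 3 lower (19.4%), with a median of 0.34 against 0.08 for all genes.

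**Figure D2:**
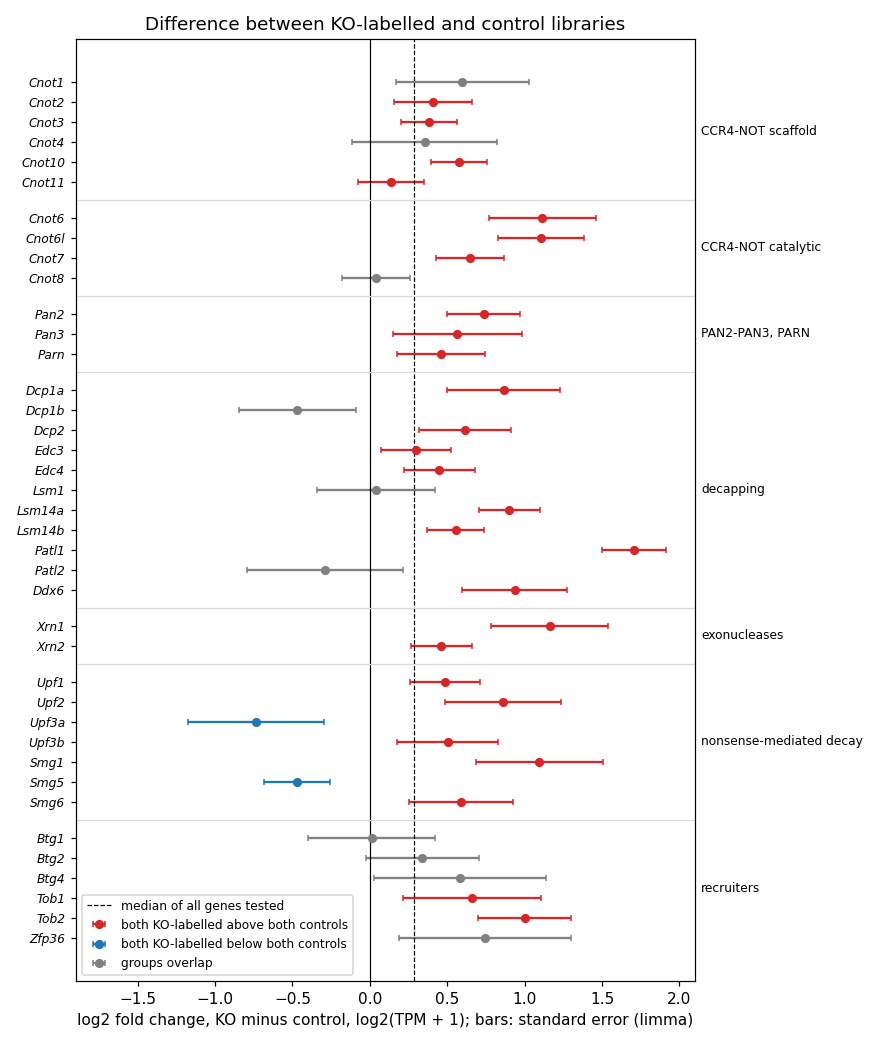
log2 fold change of each of the 39 genes, KO-labelled minus control, on log2(TPM + 1), with limma's standard error as the bar and n = 2 libraries per group. Red marks genes with both KO-labelled libraries above both controls (27), blue those with both below (2) and grey those whose groups overlap (10); the dashed line is the median of all genes tested, 0.28.

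Among the scaffold and module subunits of CCR4-NOT, 4 of 6 were higher without overlap (38.6% of all genes) and 0 were lower, with a median log2 fold change of 0.39 against 0.28 for all genes. This median was 0.12 without control 2 and 0.06 after median-ratio scaling. *Cnot10*, part of the N-terminal module of the complex, was at 98.2 and 112 TPM in control libraries 1 and 2 and at 153 and 160 TPM in the KO-labelled libraries (log2 fold change 0.57, standard error 0.18, limma adjusted p = 0.320). *Cnot2* and *Cnot3*, which form the NOT module, had log2 fold changes of 0.41 and 0.38, and *Cnot11*, the partner of *Cnot10*, had 0.14. The scaffold *Cnot1* was at 273 TPM in control 1, between 269 and 285 TPM in the KO-labelled libraries, and at 122 TPM in control 2. Its log2 difference was 0.02 from control 1 and 1.17 from control 2. The E3 ubiquitin ligase *Cnot4* also overlapped, with 58.0, 24.2, 45.6 and 51.0 TPM.

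Of the 4 catalytic deadenylases of CCR4-NOT, 3 were higher without overlap (38.6% of all genes tested), with a median of 0.88 against 0.28 for all genes. *Cnot6* and *Cnot6l* encode the paralogous CCR4-type nucleases, of which a complex holds one. *Cnot6* was at 66.8 and 36.1 TPM in control libraries 1 and 2 and at 104 and 111 TPM in KO-labelled libraries 1 and 2 (1.11, standard error 0.35, limma adjusted p = 0.320). *Cnot6l* was at 15.7 and 12.3 TPM against 32.5 and 29.6 TPM (1.10, standard error 0.28, limma adjusted p = 0.310). Both paralogues were thus higher by a similar amount, and *Cnot6* kept between 74.5% and 81.0% of their summed TPM in every library. *Cnot7* and *Cnot8* encode the CAF1-type nucleases. *Cnot7* was at 126 and 94.0 TPM in the control libraries and at 169 and 172 TPM in the KO-labelled libraries (0.65, standard error 0.22, limma adjusted p = 0.329), whereas *Cnot8* was at 56.7, 71.3, 68.9 and 62.1 TPM (0.04, standard error 0.22). The groups overlapped for *Cnot8* and did not for *Cnot7*.

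The 3 genes of PAN2-PAN3 and PARN were all higher without overlap (38.6% of all genes tested), with a median of 0.56 against 0.28 for all genes. *Pan2*, the nuclease of the PAN2-PAN3 complex, had a log2 fold change of 0.74 (standard error 0.24, limma adjusted p = 0.322), with 53.3 and 39.3 TPM in the control libraries and 74.7 and 79.3 TPM in the KO-labelled libraries. Its adaptor *Pan3* was at 35.6 TPM in control 1 and 35.7 TPM in KO-labelled library 1, while control 2 was at 16.9 TPM, which put its log2 difference at 0.05 from control 1 and 1.08 from control 2. *Parn*, a nuclease that also trims small RNAs, was at 22.1 and 32.2 TPM against 38.2 and 36.04 TPM.

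Of the 11 decapping genes, 8 were higher without overlap (38.6% of all genes tested) and 3 overlapped, with a median of 0.55 against 0.28 for all genes. *Patl1* encodes a scaffold that joins the CCR4-NOT complex, the LSM ring and DCP2. It was at 33.4 and 27.7 TPM in control libraries 1 and 2 and at 102 and 101 TPM in KO-labelled libraries 1 and 2. Its log2 fold change, the largest of the 39, was 1.71 (standard error 0.21), with an unadjusted p of 0.00084 and an adjusted p of 0.310 in limma, and the gap between its controls, 0.26, was small beside it. *Lsm14a*, a translational repressor found in P-bodies, the cytoplasmic granules that hold repressed mRNA, was at 68.5 and 81.6 TPM against 150 and 132 TPM (0.90, standard error 0.20, limma adjusted p = 0.310). Its paralogue *Lsm14b* was at 152 and 133 TPM against 207 and 212 TPM (0.55). *Ddx6*, the helicase that binds these factors, was at 103 and 56.3 TPM against 145 and 147 TPM (0.93, standard error 0.34, limma adjusted p = 0.341).

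The decapping enzyme *Dcp2* was at 18.3 and 13.3 TPM in the control libraries and at 24.4 and 24.6 TPM in the KO-labelled libraries, and its enhancers *Edc3* and *Edc4* had log2 fold changes of 0.30 and 0.45. Of the exonic bases of *Edc3*, 22.1% overlap *Clk3* on the other strand, and the strand setting of the counting was not given in the sources used here, so its value may hold reads of its neighbour. *Dcp1a* and *Dcp1b* encode alternative activating partners of DCP2. *Dcp1a* was at 21.9 and 12.2 TPM in the control libraries and at 31.2 and 30.3 TPM in the KO-labelled libraries, both above both controls (0.87, standard error 0.36, limma adjusted p = 0.375). *Dcp1b* was at 32.6 and 18.1 TPM in the control libraries and at 18.2 and 16.5 TPM in the KO-labelled libraries (-0.47, standard error 0.38, limma adjusted p = 0.588). The level of *Dcp1b* in control 2 was within the range of the KO-labelled libraries, so only control 1 lay above both. *Lsm1*, a subunit of the ring that binds shortened tails, was at 22.1 TPM in control 1, 42.6 TPM in control 2 and 31.2 and 32.1 TPM in the KO-labelled libraries, between its controls. *Patl2* was at 2.04, 3.31, 2.97 and 1.21 TPM, with groups that overlapped.

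Both 5′-to-3′ exonucleases were higher without overlap, where 38.6% of all genes tested were. *Xrn1*, the cytoplasmic enzyme, was at 13.2 and 7.44 TPM in control libraries 1 and 2 and at 23.8 and 23.1 TPM in the KO-labelled libraries (1.16, standard error 0.38, limma adjusted p = 0.324). *Xrn2*, its nuclear counterpart, was at 78.6 and 87.2 TPM against 125 and 104 TPM (0.46, standard error 0.20, limma adjusted p = 0.382).

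NMD genes were the role group with members in both directions, 5 of 7 higher and 2 lower without overlap. The shares of all genes tested were 38.6% and 12.1%. *Smg1*, the kinase that phosphorylates UPF1, was at 71.0 and 32.9 TPM in control libraries 1 and 2 and at 105 TPM in each KO-labelled library (1.10, standard error 0.41, limma adjusted p = 0.347). *Upf2*, which bridges UPF1 to the exon junction complex, was at 57.0 and 29.3 TPM against 70.9 and 79.4 TPM (0.86, standard error 0.37, limma adjusted p = 0.383). *Upf1* and the endonuclease *Smg6* had log2 fold changes of 0.49 and 0.59. *Upf3a* and *Upf3b* encode paralogous adaptors of the exon junction complex. *Upf3a* was at 323 TPM in control 1, 141 TPM in control 2 and 123 and 132 TPM in the KO-labelled libraries (-0.74, standard error 0.44, limma adjusted p = 0.484). Control 1 stood well above the other libraries, and the log2 difference of the KO-labelled libraries from control 2 was -0.15. *Upf3b*, which lies on the X chromosome, was at 15.6 and 10.96 TPM against 18.1 and 19.8 TPM (0.50). *Smg5*, which binds phosphorylated UPF1, was chosen for description after its values were seen; it was at 103 and 82.7 TPM in the control libraries and at 63.3 and 69.8 TPM in the KO-labelled libraries (-0.47, standard error 0.21, limma adjusted p = 0.389).

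Of the 6 genes for proteins that bring CCR4-NOT to chosen mRNAs, 2 were higher without overlap, near the 38.6% of all genes, and 4 overlapped. Their median was 0.62, and it was 0.04 without control 2 and 1.20 without control 1. *Tob2* was at 27.4 and 17.6 TPM in the control libraries and at 46.4 and 43.6 TPM in the KO-labelled libraries (1.00, standard error 0.30, limma adjusted p = 0.319). *Tob1* was at 96.4 TPM in control 1, 41.4 TPM in control 2 and 97.6 and 104 TPM in the KO-labelled libraries (0.66, standard error 0.45), so that its difference from control 1 was 0.06 on the log2 scale. *Btg1* was at 38.7, 19.0, 28.5 and 26.4 TPM, *Btg2* at 13.8, 8.96, 15.5 and 13.3 TPM, and *Btg4*, known for mRNA clearance in oocytes, at 12.5, 5.25, 9.57 and 16.8 TPM, in the order control 1, control 2, KO-labelled 1 and 2. The groups overlapped for each of these *Btg* genes. *Zfp36*, which binds AU-rich elements and recruits CCR4-NOT, was at 23.9 and 8.30 TPM against 26.3 and 22.7 TPM.

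The sets of paralogues allow a comparison that the scaling between libraries does not touch, the share of each paralogue in the summed TPM of its family. These shares were not corrected for transcript length, with which the differences between libraries moved, as described below. The largest difference was that of *Dcp1a*, which held 40.1% and 40.4% of the *Dcp1a* plus *Dcp1b* total in controls 1 and 2 and 63.1% and 64.8% in KO-labelled libraries 1 and 2, a difference of 23.7 percentage points. The controls, which differed in the level of both genes, differed by less than 1 percentage point in this share. The sum itself was 54.5, 30.3, 49.4 and 46.7 TPM, overlapping between groups. *Upf3a* held 95.4% and 92.8% of the *Upf3a* plus *Upf3b* total in the controls and 87.2% and 87.0% in the KO-labelled libraries. *Cnot7* held 68.9% and 56.9% of its pair in the controls and 71.1% and 73.5% in the KO-labelled libraries. The share of *Patl1* was 94.2% and 89.3% against 97.2% and 98.8%, and that of *Xrn1* 14.4% and 7.86% against 16.0% and 18.1%. *Lsm14a* held 31.0% and 38.0% against 42.0% and 38.4%, with control 2 and KO-labelled library 2 close together. *Btg1* was lower as a share of the 3 *Btg* genes, with 59.6% and 57.2% against 53.2% and 46.7%. In an exact two-sided permutation test over the 4 libraries each of these shares gave p = 0.33, the smallest p that 2 libraries against 2 allow, so the design cannot reach 0.05. The shares of *Cnot6*, *Tob1*, *Btg2* and *Btg4* overlapped between the groups. With each library corrected for length, the log2 fold changes of *Xrn1* and *Xrn2* were 0.68 and 0.43, against 1.16 and 0.46 before. Those of *Cnot7* and *Cnot8* were 0.56 and 0.19, against 0.65 and 0.04. For *Dcp1a* and *Dcp1b* they were 0.62 and -0.58, against 0.87 and -0.47.

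**Figure D3:**
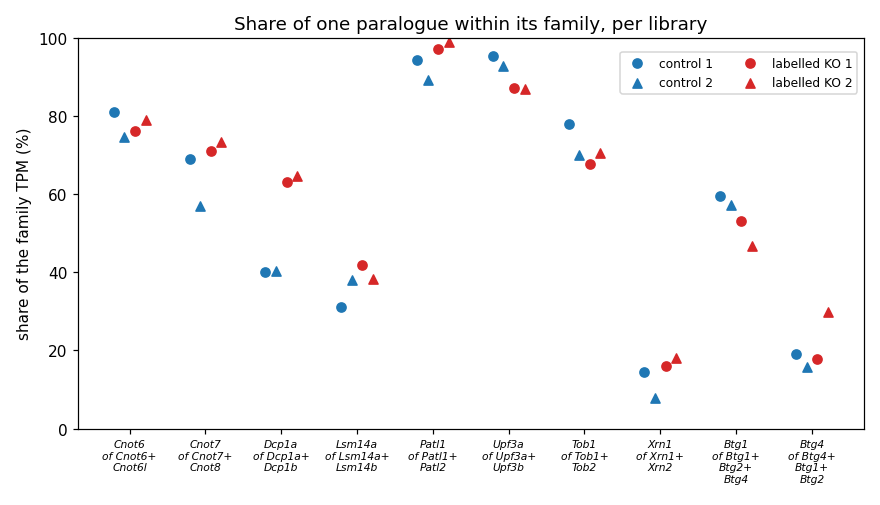
Share of one paralogue in the summed TPM of its family, in percent from 0 to 100, one point per library. Blue points are controls and red points KO-labelled libraries, with circles for replicate 1 and triangles for replicate 2; for *Dcp1a* the controls sit at 40.1% and 40.4% and the KO-labelled libraries at 63.1% and 64.8%, with the widest gap of the families shown.

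The level against each control was then read separately. Against control 1 the median log2 difference of the members was 0.39 and 0.40 for KO-labelled libraries 1 and 2 (0.17 and 0.13 over all genes tested), and against control 2 it was 0.76 and 0.80 (0.45 and 0.43 over all genes). The 4 comparisons share libraries and are not independent. Both KO-labelled libraries lay above control 1 for 29 members, as for 52.9% of all genes, and below it for 5, as for 36.03%. The gap between the controls was larger than the difference between the groups for 17 of the 39. The median size of that gap was 0.52 on the log2 scale, against 0.09 between the KO-labelled libraries. Over all genes tested these medians were 0.65 and 0.16. Without control 1 the median log2 fold change of the members was 0.78, against 0.45 for all genes tested. Without control 2 it was 0.39, against 0.15. It was 0.61 without KO-labelled library 1 and 0.54 without KO-labelled library 2, against 0.26 and 0.31. A fit with a lone library in a group has no spread within that group, so its calls are not read as evidence.

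**Figure D4:**
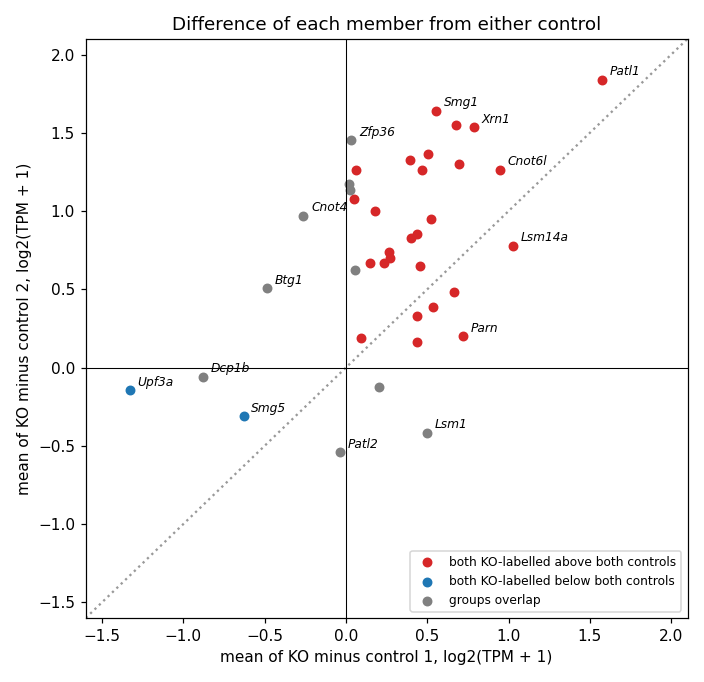
Each point is one of the 39 genes, with the log2 difference between the mean of the KO-labelled libraries and control 1 on the x axis and the same for control 2 on the y axis, both on log2(TPM + 1); red, blue and grey mark genes higher, lower and overlapping between the groups, and the dotted line is the diagonal. Most points lie in the upper right and above the diagonal, where the difference from control 2 is the larger; *Patl1* is at 1.57 and 1.84, and *Upf3a* at -1.33 and -0.15.

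Transcript length moved with these differences. The longest GENCODE transcript of the members had a median of 4216 bases, against 3166 for all genes with a length, and 17 of the 39 members fell in the longest length quartile of genes and 1 in the shortest. From the shortest to the longest quartile, the median log2 fold change of all genes was -0.04, 0.20, 0.36 and 0.57, and the median of control 2 minus control 1 was 0, -0.22, -0.37 and -0.66. After each library was corrected for length by a smooth fit, the median of the members was 0.43 against 0.28 for all genes. There were then 25 members higher without overlap, against 39.5% of all genes, and 3 lower, *Dcp1b*, *Upf3a* and *Smg5*, against 10.6%. *Patl1* was at 1.59, *Cnot6* at 0.86 and *Dcp1a* at 0.62 after this correction, and *Cnot1* at 0.19. The corrected median of the decapping genes was 0.28, the same as for all genes. It was 0.26 for the CCR4-NOT scaffold and modules, 0.63 for the catalytic subunits and 0.49 for PAN2-PAN3 and PARN. For the exonucleases it was 0.56, for NMD 0.33 and for the recruiters 0.79.

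Beyond the 39 genes, 73 of 76 other genes of mRNA decay passed the filter, of which 41 were higher (38.6% of all genes tested) and 7 lower (12.1%) without overlap, with a median log2 fold change of 0.44 against 0.28. In limma, 13 were higher (10.7% of all genes) and 2 lower (3.73%) at an unadjusted p under 0.05 and 0 passed the FDR. Of 7 microRNA effectors, 6 were higher without overlap (38.6% of all genes tested), with a median of 0.98 against 0.28 for all genes. Their longest transcripts ran from 6537 to 17332 bases, and all genes in the longest length quartile had a median of 0.57. The part of length in this group was not tested. *Ago2*, which encodes an Argonaute that binds microRNAs, was at 14.9 and 7.29 TPM in the control libraries and at 26.3 and 26.2 TPM in the KO-labelled libraries (1.25). The CCR4-NOT-binding *Tnrc6a* was at 30.7 and 14.4 TPM against 53.5 and 56.5 TPM (1.34), with *Tnrc6c* at 1.03. Of 6 genes for enzymes that add nucleotides to RNA 3′ ends (*Zcchc11*, *Zcchc6*, *Tut1*, *Papd4*, *Papd5* and *Papd7*), 5 were higher without overlap. The share of all genes tested was 38.6%, and the median was 0.94 against 0.28. Among them *Zcchc11* and *Zcchc6* encode uridylyltransferases that mark shortened tails for decay. *Zcchc11* was at 50.6 and 30.7 TPM against 93.2 and 84.95 TPM (1.15), and *Zcchc6* had a log2 fold change of 1.00. Among other recruiters and RNA-binding proteins, 11 of the 14 tested were higher without overlap (38.6% of all genes tested). They included *Zfp36l2* (1.26), *Rc3h1*, which encodes the stem-loop-binding protein roquin (1.14), and *Btg3* (1.12). *Btg3* was at 58.0 TPM in control 1 and 177 TPM in control 2 against 215 and 228 TPM.

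The exosome degrades RNA from the 3′ end, helped by the SKI complex. Of 18 genes of the exosome and SKI complexes, 7 were higher and 2 lower without overlap, close to the shares of all genes tested (38.6% and 12.1%), with a median of 0.16 against 0.28. *Exosc8*, a subunit of the exosome ring, was at 58.9 and 127 TPM in the control libraries and at 184 and 187 TPM in the KO-labelled libraries (1.09). *Dis3l*, the cytoplasmic nuclease of the exosome, was at 237 and 153 TPM against 80.1 and 105 TPM (-1.05, standard error 0.30, limma adjusted p = 0.318). It was the only other decay gene lower by at least 1 on the log2 scale without overlap. Among 12 other decapping genes 3 were higher (38.6% of all genes tested) and 3 lower (12.1%), with a median of 0.01 against 0.28. Among 10 other NMD and exon junction genes 4 were higher (38.6% of all genes) and 1 lower (12.1%), with a median of 0.28, close to all genes. Of 6 other deadenylase and CCR4-NOT genes, 5 were higher (38.6% of all genes tested) and 1 lower (12.1%), with a median of 0.47. The other lower genes without overlap were *Angel1*, *Lsm2*, *Nudt16*, *Nudt3*, *Exosc5* and *Smg9*, chosen for mention after their values were seen.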

How the data were processed

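RNA was measured in 2 control *Zfp541*+/- and 2 *Zfp541* KO samples of sorted GFP-positive P18 testis cells. Libraries were made from poly(A) RNA and read as single ends of 75 nt. The authors trimmed reads with Trim Galore 0.5.0 (cutadapt 1.16), aligned them to UCSC mm10 with STAR 2.6.0a and estimated expression with RSEM 1.3.1, which divides reads that match several genes, and the deposited values are TPM per gene. The depth of each library is unknown, as TPM does not keep it. The methods name RSEM for differential analysis, which was not repeated here.

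Genes averaging at least 1 TPM were compared by genotype in R 4.3.3 with limma 3.58.1 on log2(TPM + 1), with a mean-variance trend and two-sided p-values adjusted by Benjamini-Hochberg over all 14512 genes (FDR 0.05). The script was tested on simulated data. P-values measure the spread between these samples only. Members and lists were chosen with earlier results of these data known. Values in all 4 libraries are given for paralogue families and the 10 members of largest difference without overlap, and other decay genes are named from a log2 fold change of at least 1 without overlap; further values are given where a sentence needed them. Paralogue shares were compared by exact permutation. Lengths and positions came from GENCODE M21 (GRCm38) and promoter windows from RefSeq (GRCm38.p6). Alternatives covered pseudocount, filter, scaling, variance model, replicate block and leaving out each library; the crossed block and a correction for length were chosen after seeing the data.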

Additional observations from a re-analysis of the deposited data

How the results depend on the processing

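Without the filter 1 gene was higher and 1 lower at the FDR, neither a member, and the members' median exceeded that of all genes by 0.55. Median-ratio scaling gave 16 members higher and 4 lower without overlap, 5 and 3 at an unadjusted limma p under 0.05 (605 and 1097 of all 14512 genes), a median of 0.24, and 12 of 73 other decay genes lower (22.8% of all genes). Quantile normalization gave 2 members lower at that p (1009 of all 14512 genes) and a median of 0.34. No mean-variance trend gave 6 members higher at that p (1393 of all 14512 genes). Same-numbered libraries deviated from their group means with a correlation of -0.16 across genes. With 2 libraries per group this cannot show whether equal numbers mark a shared batch or litter. The replicate block gave 5 members higher at that p (656 of all 14512 genes) and 0 at the FDR. The crossed block gave 7 genes higher and 80 lower at the FDR, 0 of them members. Length correction gave 1 member lower at that p (378 of all 14381 genes) and a median 0.15 above all genes. With the replicate block it gave 3 members higher (636 of all 14381 genes) and 0.15. The *Dcp1a* share difference was 22.7 points with 1 TPM added to each paralogue.

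Reversed signs were found for *Cnot11* (-0.19), *Cnot8* (-0.29), *Edc3* (-0.030), *Lsm1* (-0.29) and *Btg1* (-0.31) under median-ratio scaling, for *Cnot11* (-0.13), *Cnot8* (-0.16), *Lsm1* (-0.18) and *Btg1* (-0.31) under quantile normalization, and for *Btg1* (-0.18) under length correction with or without the block. These were 11 of 467 member values with no library left out. Leaving out each library gave ranges of 0 to 5759 genes higher and 0 to 1981 lower at the FDR, 0 to 25 members called, 29 to 33 members higher and 2 to 5 lower without overlap, 1 to 29 higher and 0 to 4 lower at an unadjusted p under 0.05, a median of 0.39 to 0.78 that was 0.23 to 0.35 above all genes, and 43 to 57 other decay genes higher and 7 to 21 lower. In the same fits, 42.6% to 66.1% of all genes tested were higher and 15.9% to 36.3% lower without overlap. The highest share, 66.1%, was without control 1. The ranges of calls and of unadjusted p come from fits with a lone library in a group, so they are no result on the members. Leaving out each library gave log2 fold changes of -0.26 to 0.97 for *Cnot4*, -0.12 to 0.20 for *Cnot8* and -0.42 to 0.50 for *Lsm1*. They were -0.71 to 0.13 for *Patl2* and -0.48 to 0.51 for *Btg1*, and 32 members reversed under no setting. The causes were not tested. With TPM alone, depth sets no stated limit, and 2 libraries per group limit every p.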
